A study of Homo sapiens with 13 samples.

Results

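The 10 genes described here are signalling molecules and targets of the TGF-beta family. BMP2, BMP4, TGFB1, TGFB2, INHBA and INHBE encode secreted ligands or ligand subunits. ID1, ID2 and ID3 are transcriptional targets of the pathway, and SMAD7 is an inhibitory target. They were chosen by name, with earlier results of these data known, from the 18377 genes that the arrays measured with a row of their own. Each of the 10 had 1 such row.

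Ligands of this family bind pairs of receptor kinases at the cell surface, which phosphorylate SMAD proteins that then move to the nucleus. TGF-beta and activin ligands act mainly through SMAD2 and SMAD3, and BMP ligands through SMAD1, SMAD5 and SMAD9. ID genes are classical targets of BMP signalling, and their products lack a DNA-binding region and hold E proteins away from DNA. In the liver, BMP signals set the iron hormone hepcidin, TGF-beta drives fibrosis and restrains hepatocyte growth, and activin E is made by hepatocytes.

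RNA was measured on 13 Affymetrix gene arrays, each from its own flask harvested after 72 h. HepG2, a human hepatoblastoma line, was grown without sorafenib at 20% O2 (n = 3); whether these flasks received the drug's solvent, DMSO, is not stated in the labels. HepG2S1 is a single subline of HepG2 that was adapted to sorafenib, a multikinase inhibitor, by raising the dose in steps over months and was then kept on the drug. It was grown with 6 µM sorafenib at 20% O2 (n = 4), after removal of the drug at 20% O2 (n = 3), or with 6 µM sorafenib at 2% O2 (n = 3). No parental HepG2 arrays with the drug or at 2% O2 were used here, so in the comparison of HepG2S1 under the drug with HepG2 the line's adaptation and the drug's presence cannot be told apart; withdrawn HepG2S1 against HepG2 has no drug on either side at harvest. Whether the subline is 1 clone or a mixture is not stated in the labels.

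Values are log2 levels on the authors' scale, from 2.68 to 14.5 over the table, with array medians from 7.30 to 7.42. The lower quartile of the arrays, with a median of 5.76, served as a mark for levels near the floor. The lowest value of any of the 10 genes was 5.99, for TGFB2 in HepG2, so none of them fell below this mark. Over all rows, Pearson correlations between arrays were 0.995 to 0.998 within a group, 0.991 to 0.996 between the HepG2S1 groups and 0.913 to 0.923 between the lines, as a description.

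The lines differed in the markers of the cell type they are labelled as. The mean of 9 measured hepatocyte markers lay between 12.76 and 12.81 on the HepG2 arrays and between 5.75 and 5.92 on the 10 HepG2S1 arrays, where ALB, AFP, APOH and FGB were below the mark of 5.76. AFP, the fetal serum protein that HepG2 secretes, averaged 13.45 ± 0.10 (SD, n = 3) in HepG2 and 4.79 ± 0.07 (SD, n = 4) in HepG2S1 with sorafenib. The mean of 10 fibroblast and stellate cell markers moved the other way, from 6.88 to 7.02 in HepG2 to between 8.11 and 8.25 in HepG2S1. That shift rested largely on DCN and LUM, which were higher by 5.43 ± 0.07 and 5.01 ± 0.14 (log2, SE) in HepG2S1 with sorafenib. It does not show that the markers rose as a set. PDGFRA was the only one of these 10 below the mark in HepG2S1, against DCN, LUM, PDGFRA and FAP in HepG2. For 5 endothelial markers the array means ran from 6.09 to 6.30 in HepG2 and from 5.82 to 6.01 in HepG2S1, and for 5 blood cell markers from 7.13 to 7.22 and from 6.96 to 7.24, with PTPRC, which all white blood cells carry, below the mark in all 4 groups. The part of these marker shifts in the results below was not tested.

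The promoter windows of ID1, ID2 and ID3, whose levels took 3 different courses over the groups, and of TGFB1 and TGFB2, 1 of which differed between the lines, are printed to set beside those values. Each is the 250 bases before the transcription start in RefSeq, read 5′ to 3′ on the gene's strand, with coordinates on GRCh38.p14: chr20:31605039-31605288 on the plus strand for ID1, chr2:8681806-8682055 (plus) for ID2, chr1:23559502-23559751 (minus) for ID3, chr19:41353923-41354172 (minus) for TGFB1 and chr1:218345086-218345335 (plus) for TGFB2. Capitals mark ACGTG on either strand, the core letters that HIF factors bind.
ID1: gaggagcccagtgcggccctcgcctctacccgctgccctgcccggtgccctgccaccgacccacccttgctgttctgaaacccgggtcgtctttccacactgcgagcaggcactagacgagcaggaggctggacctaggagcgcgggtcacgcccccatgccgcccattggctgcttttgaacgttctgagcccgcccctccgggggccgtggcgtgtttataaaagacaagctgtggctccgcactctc
ID2: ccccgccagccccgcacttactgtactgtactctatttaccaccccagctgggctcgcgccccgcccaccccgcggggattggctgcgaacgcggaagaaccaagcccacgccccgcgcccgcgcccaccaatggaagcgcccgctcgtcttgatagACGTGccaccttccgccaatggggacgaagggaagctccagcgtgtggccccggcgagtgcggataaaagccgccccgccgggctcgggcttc
ID3: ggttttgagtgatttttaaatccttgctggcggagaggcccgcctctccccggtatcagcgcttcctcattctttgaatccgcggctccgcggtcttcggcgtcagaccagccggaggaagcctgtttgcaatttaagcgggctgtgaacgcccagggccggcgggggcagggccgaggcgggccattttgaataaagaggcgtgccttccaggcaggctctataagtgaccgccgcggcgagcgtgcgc
TGFB1: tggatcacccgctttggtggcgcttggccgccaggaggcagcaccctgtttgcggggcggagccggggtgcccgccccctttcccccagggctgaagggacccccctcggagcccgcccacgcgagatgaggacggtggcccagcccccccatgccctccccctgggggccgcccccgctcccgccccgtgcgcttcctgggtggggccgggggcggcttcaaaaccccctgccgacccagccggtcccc
TGFB2: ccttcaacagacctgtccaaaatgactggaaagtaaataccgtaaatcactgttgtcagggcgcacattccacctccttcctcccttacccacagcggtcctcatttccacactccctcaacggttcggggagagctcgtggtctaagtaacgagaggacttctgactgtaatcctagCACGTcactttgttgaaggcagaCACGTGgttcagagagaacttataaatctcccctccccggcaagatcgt

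RefSeq windows were matched for 8 of the 10 genes, with 12 windows in all because BMP4 and SMAD7 have several starts, and no entry was matched for BMP2 and INHBE. ACGTG was present in 3 of the 12 windows and in 18.5% of 35116 windows of the same length. It began at position -93 in ID2 and at positions -72, -49 and -48 in TGFB2, counted back from the start, and 1 BMP4 window held it at -83 and -82; matches on opposite strands overlap at -49 and -48 and at -83 and -82. The short SMAD-binding letters GTCT were found in 10 of the 12 windows and in 77.5% of all windows. There were 3 GTCT matches in ID1, 2 each in ID2 and ID3, 3 in TGFB2 and none in TGFB1. The BMP-responsive letters GGCGCC occurred in 1 of the 12 windows, at -232 of BMP4, against 16.4% of all windows. Neither the palindrome GTCTAGAC (0.182% of all windows) nor TTGCATCA (0.772%), letters of the ATF4 type, was in these windows. The windows of ID1, ID2 and ID3 were 66.0%, 69.2% and 62.0% G and C, TGFB1 76.8% and TGFB2 50.4%, against a median of 58.0% over all windows.

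**Figure D1:**
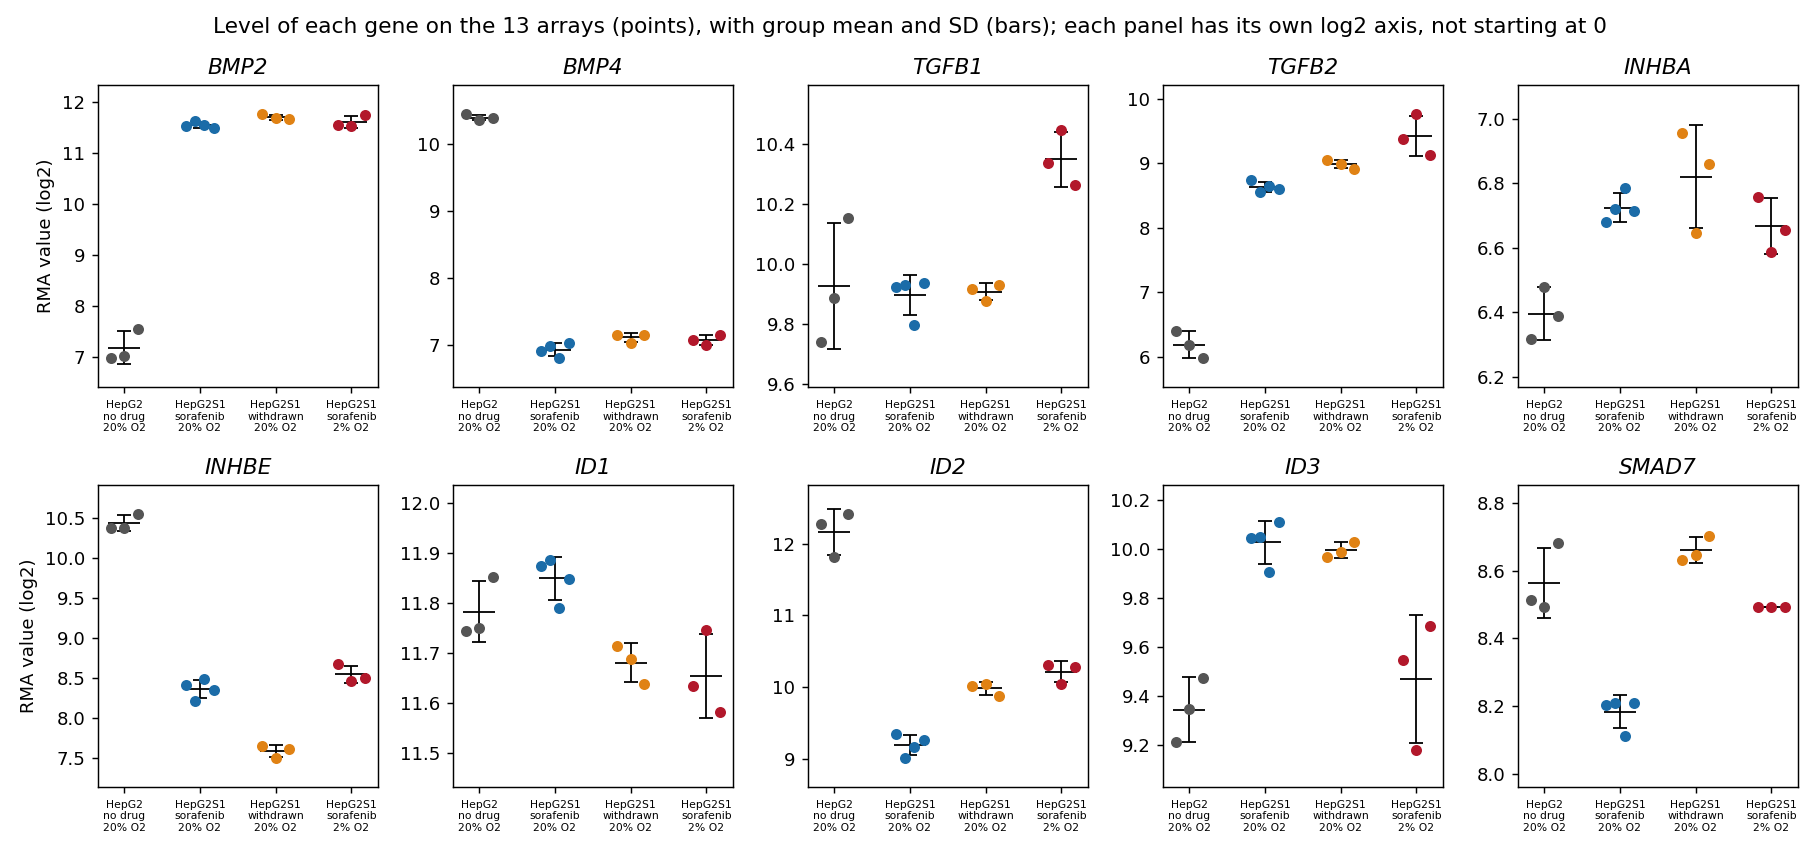
Log2 level (vertical axis, RMA values) of each of the 10 genes on each of the 13 arrays (points) in the 4 groups (horizontal axis), with group means and SDs as bars. BMP2 and TGFB2 sit far higher and BMP4, INHBE and ID2 far lower on all 10 HepG2S1 arrays than on the 3 HepG2 arrays, while TGFB1 and ID1 stay within a narrow range.

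HepG2S1 with sorafenib was first set against parental HepG2 at 20% O2, the comparison of the resistant with the sensitive line. The BMP ligands among the 10 genes went opposite ways, with BMP2 20.7-fold higher and BMP4 11.0-fold lower in HepG2S1. TGFB2 was 5.42-fold higher, and TGFB1 did not pass the test. RNA came from whole flasks, so fewer expressing cells and less RNA per cell cannot be told apart. INHBE was 4.18-fold lower and INHBA 1.26-fold higher. The ID genes diverged, with ID2 7.83-fold lower, ID3 1.60-fold higher and ID1 not past the threshold. In all, 4 of the 10 genes rose (BMP2, TGFB2, INHBA and ID3) and 4 fell (BMP4, INHBE, ID2 and SMAD7) at a limma adjusted p under 0.05, where 30.1% of the 18377 genes tested were called higher and 27.2% lower. The median absolute log2 fold change was 1.37 for the 10 genes and 0.24 over all genes, and 5 of the 10 changed at least 2-fold against 15.8% of all genes.

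BMP2, a ligand that in the liver helps regulate hepcidin, stood at 6.97, 7.01 and 7.54 on the HepG2 arrays. With sorafenib at 20% O2, HepG2S1 gave 11.53, 11.63, 11.54 and 11.49. After withdrawal the values were 11.76, 11.68 and 11.66, and at 2% O2 they were 11.55, 11.52 and 11.74. All 10 HepG2S1 arrays were thus above all HepG2 arrays, and the 3 HepG2S1 groups overlapped or lay close together. The log2 fold change of HepG2S1 with sorafenib over HepG2 was 4.37 ± 0.11 (SE, limma adjusted p = 1.36e-14), and that of withdrawn HepG2S1 over HepG2 was 4.52 ± 0.12 (limma adjusted p = 2.32e-14).

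BMP4, a close relative of BMP2 that patterns the embryonic liver bud, ran in the opposite direction. Its HepG2 values were 10.45, 10.37 and 10.39. HepG2S1 with sorafenib had 6.92, 6.99, 6.81 and 7.03, withdrawn cells 7.16, 7.04 and 7.16, and cells at 2% O2 7.08, 7.01 and 7.15. No HepG2S1 array came near the HepG2 arrays. On the log2 scale the difference from HepG2 was -3.46 ± 0.06 with sorafenib (limma adjusted p = 2.77e-16), -3.28 ± 0.07 after withdrawal and -3.32 ± 0.07 at 2% O2 with the drug.

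TGFB2, a TGF-beta isoform that needs the co-receptor betaglycan for strong receptor binding, was at 6.40, 6.19 and 5.99 in HepG2, close to the mark of 5.76. HepG2S1 with sorafenib had 8.73, 8.55, 8.65 and 8.60, which did not overlap with HepG2. Withdrawn cells had 9.05, 8.99 and 8.91, and cells at 2% O2 had 9.38, 9.76 and 9.13, the highest group. Against HepG2 the log2 fold change was 2.44 ± 0.12 with sorafenib (limma adjusted p = 5.8e-11), 2.79 ± 0.13 after withdrawal and 3.23 ± 0.13 at 2% O2.

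TGFB1, the main profibrotic isoform, was at 9.74, 9.89 and 10.15 in HepG2 and at 9.93, 9.93, 9.80 and 9.94 in HepG2S1 with sorafenib. The HepG2S1 values fell inside the range of the HepG2 arrays. The log2 fold change was -0.03 ± 0.08 (limma adjusted p = 0.789), and after withdrawal, with values of 9.92, 9.88 and 9.93, it was -0.02 ± 0.09 against HepG2 (limma adjusted p = 0.882).

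INHBE, which encodes the subunit of activin E and is made mainly in liver, gave 10.37, 10.38 and 10.55 in HepG2. HepG2S1 with sorafenib gave 8.41, 8.22, 8.48 and 8.36, withdrawn cells 7.65, 7.50 and 7.61, and cells at 2% O2 8.67, 8.46 and 8.50. Every HepG2S1 array was below every HepG2 array, and the withdrawn arrays were the lowest. Relative to HepG2 the log2 fold change was -2.06 ± 0.07 with sorafenib (limma adjusted p = 1.36e-12) and -2.84 ± 0.08 after withdrawal (limma adjusted p = 7.14e-14).

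INHBA, the subunit of activin A, moved far less. Its HepG2 values were 6.32, 6.48 and 6.39, against 6.68, 6.72, 6.79 and 6.71 in HepG2S1 with sorafenib. The groups did not overlap, and the log2 fold change was 0.33 ± 0.07 (limma adjusted p = 0.000916). Withdrawn cells had 6.96, 6.64 and 6.86 and cells at 2% O2 6.76, 6.59 and 6.66, and these HepG2S1 groups overlapped each other.

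ID2, the ID gene with the largest change, was at 12.27, 11.81 and 12.41 in HepG2. It was at 9.34, 9.01, 9.17 and 9.26 in HepG2S1 with sorafenib, at 10.02, 10.04 and 9.87 after withdrawal and at 10.31, 10.04 and 10.28 at 2% O2. The lowest HepG2 array was above every HepG2S1 array, and the sorafenib arrays at 20% O2 were below all others. The log2 fold change against HepG2 was -2.97 ± 0.12 with sorafenib (limma adjusted p = 6.34e-12), -2.19 ± 0.13 after withdrawal and -1.95 ± 0.13 at 2% O2.

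ID3 went up where ID2 went down. HepG2 had 9.21, 9.35 and 9.48, HepG2S1 with sorafenib 10.04, 10.05, 9.90 and 10.11, and withdrawn cells 9.97, 9.99 and 10.03. Both HepG2S1 groups at 20% O2 were above all HepG2 arrays, with log2 fold changes of 0.68 ± 0.10 (limma adjusted p = 1.75e-05) and 0.65 ± 0.11 (limma adjusted p = 6.04e-05). At 2% O2 the values were 9.55, 9.18 and 9.68, which overlapped with HepG2.

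ID1, a direct target of BMP-activated SMADs, held nearly the same level in both lines. HepG2 had 11.74, 11.75 and 11.85 and HepG2S1 with sorafenib 11.87, 11.89, 11.79 and 11.85. These arrays overlapped, and the log2 fold change was 0.07 ± 0.05 (limma adjusted p = 0.33). Withdrawn cells had 11.72, 11.69 and 11.64 and cells at 2% O2 11.63, 11.75 and 11.58, so that the whole spread of ID1 over the 4 group means, from 11.65 to 11.85, was small beside that of ID2, from 9.19 to 12.16.

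SMAD7, which blocks type I receptors and is itself induced by TGF-beta, was at 8.51, 8.49 and 8.68 in HepG2. HepG2S1 with sorafenib had 8.21, 8.21, 8.11 and 8.21, lower on every array than any other group, with a log2 fold change of -0.38 ± 0.05 (limma adjusted p = 1.76e-05). Withdrawn cells had 8.63, 8.64 and 8.70 and overlapped with HepG2. At 2% O2 the 3 arrays held 1 and the same value, 8.49, which was also that of a HepG2 array. Of the 28926 rows, 64 had 1 value on all 3 arrays at 2% O2. Such rows numbered 45 in HepG2, 31 with sorafenib at 20% O2 (n = 4) and 120 after withdrawal. The tie may understate the spread of SMAD7 at 2% O2, and its cause was not tested.

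The drug-free groups were also compared, withdrawn HepG2S1 with HepG2. Here 4 of the 10 genes were higher (BMP2, TGFB2, INHBA and ID3) and 3 lower (BMP4, INHBE and ID2), where 29.6% of all genes were called higher and 27% lower. SMAD7 did not pass the test in this comparison (log2 fold change 0.10 ± 0.06, limma adjusted p = 0.182), nor did TGFB1 and ID1. This comparison shares its HepG2 arrays with the preceding one.

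**Figure D2:**
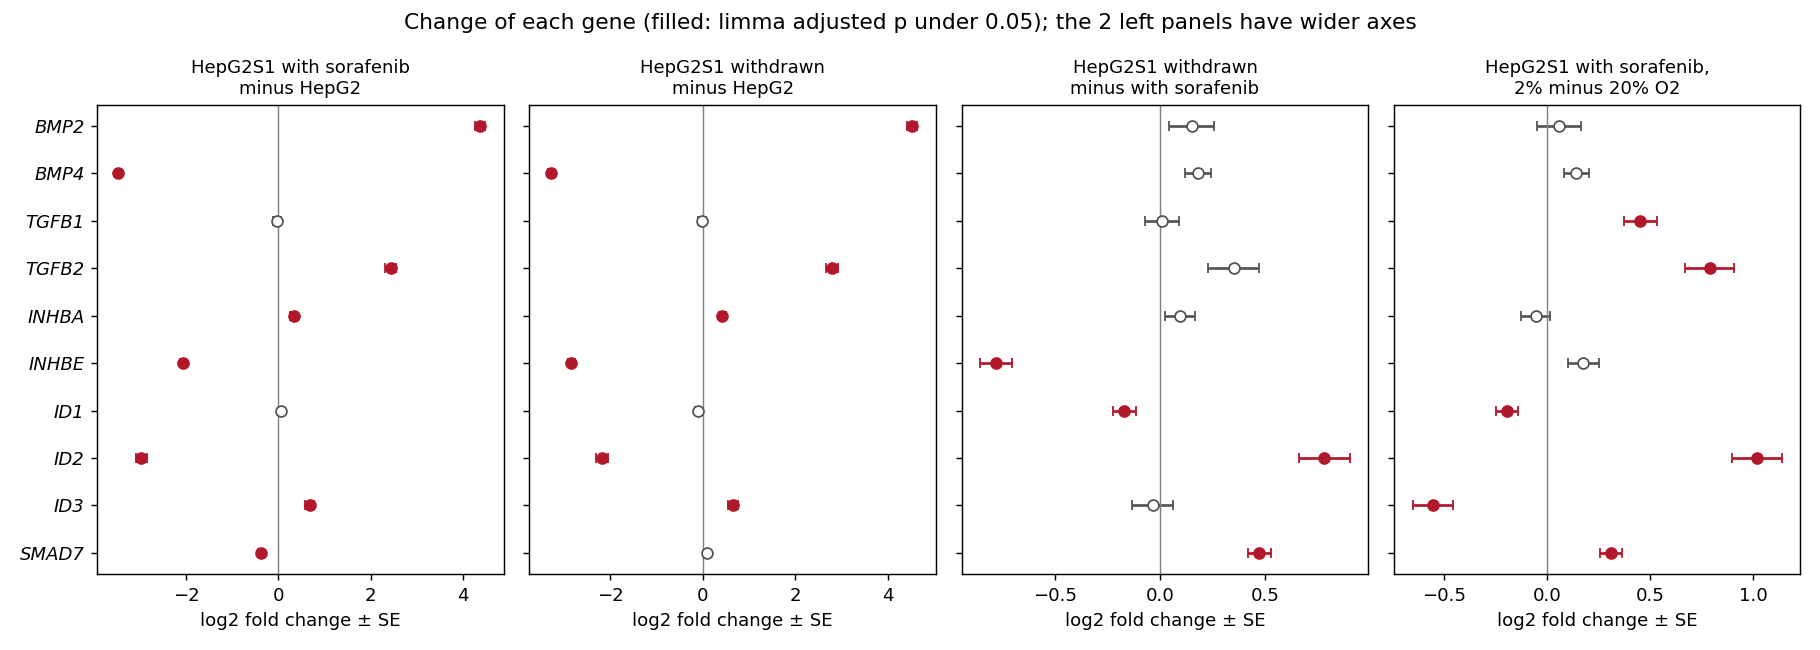
Log2 fold change (horizontal axis, with SE as bars) of each of the 10 genes (vertical axis) in 4 comparisons, with filled points for a limma adjusted p under 0.05. BMP2 rises and BMP4 falls in both comparisons with HepG2 and neither passes the test within HepG2S1, whereas ID2 and SMAD7 rise both after drug withdrawal and at 2% O2.

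Removal of sorafenib from HepG2S1 at 20% O2 asks which of these levels depended on the presence of the drug. ID2 rose 1.72-fold and SMAD7 1.39-fold, and INHBE fell a further 1.72-fold. ID1 was 1.12-fold lower. Thus 2 of the 10 genes were called higher and 2 lower, where 10.1% of all genes were called higher and 7.9% lower. The median absolute log2 fold change was 0.17 for the 10 genes and 0.09 over all genes, and none of the 10 changed 2-fold.

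On withdrawal ID2 had a log2 fold change of 0.78 ± 0.12 (limma adjusted p = 0.000428), with all 3 withdrawn arrays above all 4 sorafenib arrays. SMAD7 rose by 0.48 ± 0.05 (limma adjusted p = 4.14e-05), also without overlap, to a level that overlapped with HepG2. INHBE fell by 0.78 ± 0.07 (limma adjusted p = 9.64e-06). That drop took it away from the HepG2 level, in contrast to ID2 and SMAD7, whose rise was towards it.

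The call for ID1 was narrow, a fall of 0.17 ± 0.05 with a limma adjusted p of 0.0435, and it was made in 9 of 16 alternative settings (limma adjusted p from 0.00865 to 0.149). It was lost without sorafenib replicate 1, 2 or 4 (limma adjusted p = 0.0866, 0.0929 and 0.0857) and without withdrawn replicate 1, 2 or 3 (0.0751, 0.114 and 0.149). TGFB2 and BMP4 did not overlap between the groups either, with log2 fold changes of 0.35 ± 0.12 (limma adjusted p = 0.056) and 0.18 ± 0.06 (limma adjusted p = 0.0582), and did not pass. BMP2 also did not overlap, by a small gap (11.63 at most with sorafenib, 11.66 at least after withdrawal). Its log2 fold change was 0.15 ± 0.11 (limma adjusted p = 0.41). How many of all genes did not overlap was not counted. The log2 fold change was 0.01 ± 0.08 for TGFB1, 0.10 ± 0.07 for INHBA and -0.03 ± 0.10 for ID3.

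Low oxygen was tested in HepG2S1 under sorafenib, 2% against 20% O2. Both TGF-beta ligands among the 10 genes rose, TGFB2 1.73-fold and TGFB1 1.37-fold. The remaining isoform, TGFB3, was not called (log2 fold change 0.05 ± 0.09, limma adjusted p = 0.723). The ID genes parted again, with ID2 2.03-fold higher, ID3 1.47-fold lower and ID1 1.14-fold lower, and SMAD7 was 1.24-fold higher. Of the 10 genes 4 were called higher and 2 lower, where 8.99% of all genes were called higher and 6.17% lower. Over all genes 59.3% of the calls were higher, and 35.1% when arrays were instead scaled to their 75th percentile; none of the 10 genes changed direction under that scaling. Only ID2 reached 2-fold, against 0.435% of all genes.

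TGFB1 was above the highest HepG2 and HepG2S1 arrays at 20% O2 on all 3 arrays at 2% O2, which read 10.34, 10.45 and 10.26. The log2 fold change over sorafenib at 20% O2 was 0.45 ± 0.08 (limma adjusted p = 0.00168). For TGFB2 it was 0.79 ± 0.12 (limma adjusted p = 0.000442), and for ID2 1.02 ± 0.12 (limma adjusted p = 5.01e-05), again with no overlap of arrays.

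ID3 fell by 0.56 ± 0.10 (limma adjusted p = 0.00151), back to a mean of 9.47 ± 0.26 (SD, n = 3) against 9.35 ± 0.13 (SD, n = 3) in HepG2, a difference of 0.13 ± 0.11 (limma adjusted p = 0.316). That last difference passed the test without replicate 2 at 2% O2 (0.27, limma adjusted p = 0.0122), the array with the lowest ID3 value. SMAD7 rose by 0.31 ± 0.05 (limma adjusted p = 0.00153), with the tied values at 2% O2 described above. ID1 fell by 0.19 ± 0.05 (limma adjusted p = 0.0258), a call lost without sorafenib replicate 2 or 4 (limma adjusted p = 0.0585 and 0.0581), or when replicate 1 or 3 at 2% O2 was left out (0.0892 and 0.0849). BMP2 (0.06 ± 0.11), BMP4 (0.14 ± 0.06), INHBA (-0.06 ± 0.07) and INHBE (0.18 ± 0.07) did not pass.

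Withdrawal and low oxygen share the sorafenib arrays at 20% O2 as their controls, so both sets of values are given beside each other and the groups were compared directly. ID2 changed by 0.78 on withdrawal and 1.02 at 2% O2, and the direct difference of 0.24 ± 0.13 did not pass (limma adjusted p = 0.248). SMAD7 changed by 0.48 and 0.31, with a direct difference of -0.17 ± 0.06 (limma adjusted p = 0.062). INHBE was 0.96 ± 0.08 higher at 2% O2 with the drug than after withdrawal (limma adjusted p = 1.84e-06), TGFB1 0.44 ± 0.09 higher (limma adjusted p = 0.00224) and TGFB2 0.44 ± 0.13 higher (limma adjusted p = 0.0269). ID3 was lower by 0.52 ± 0.11 (limma adjusted p = 0.00258).

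The TGFB2 call was lost when the 2 groups were fitted alone (limma adjusted p = 0.0552). It was also lost without withdrawn replicate 2 or 3 (0.0675 and 0.0923) and without replicate 1 or 2 at 2% O2 (0.0569 and 0.124), the last with a log2 fold change of 0.27. This direct comparison called 3 of the 10 genes higher and 1 lower, where 10.8% of all genes were higher and 7.73% lower, a share of higher calls of 58.4% that was 48.2% with 75th percentile scaling.

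HepG2S1 at 2% O2 with sorafenib against HepG2 joins differences of line, drug and oxygen, which cannot be told apart here. It called 4 of the 10 genes higher (BMP2, TGFB1, TGFB2 and INHBA) and 3 lower (BMP4, INHBE and ID2), with 30.6% of all genes higher and 30.6% lower, a share of higher calls of 50.0% that was 40.0% with 75th percentile scaling. TGFB1 was higher by 0.42 ± 0.09 (limma adjusted p = 0.000541).

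By group mean, some neighbours in the order of levels differed beyond their spread in the limma test and others did not. BMP2 was highest in the 3 HepG2S1 groups, among which no step passed, with HepG2 below them. INHBA had the same order of lines, and BMP4 the opposite one. TGFB2 was highest at 2% O2, then after withdrawal, then with sorafenib at 20% O2, then in HepG2, and the step from withdrawal to sorafenib was the one that did not pass. TGFB1 was highest at 2% O2, and no step among the other groups passed. INHBE was highest in HepG2, then with sorafenib at 2% and 20% O2, a step that did not pass, and lowest after withdrawal. ID2 was highest in HepG2, then at 2% O2 and after withdrawal, a step that did not pass, and lowest with sorafenib at 20% O2. ID3 had the 2 HepG2S1 groups at 20% O2 above HepG2S1 at 2% O2 and HepG2, and neither step within these pairs passed. SMAD7 had withdrawn cells, HepG2 and cells at 2% O2 in that order, with no step passed between neighbours, above sorafenib at 20% O2. For ID1 no step between neighbours passed, and sorafenib at 20% O2, the highest, was called against both withdrawn cells and cells at 2% O2.

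**Figure D3:**
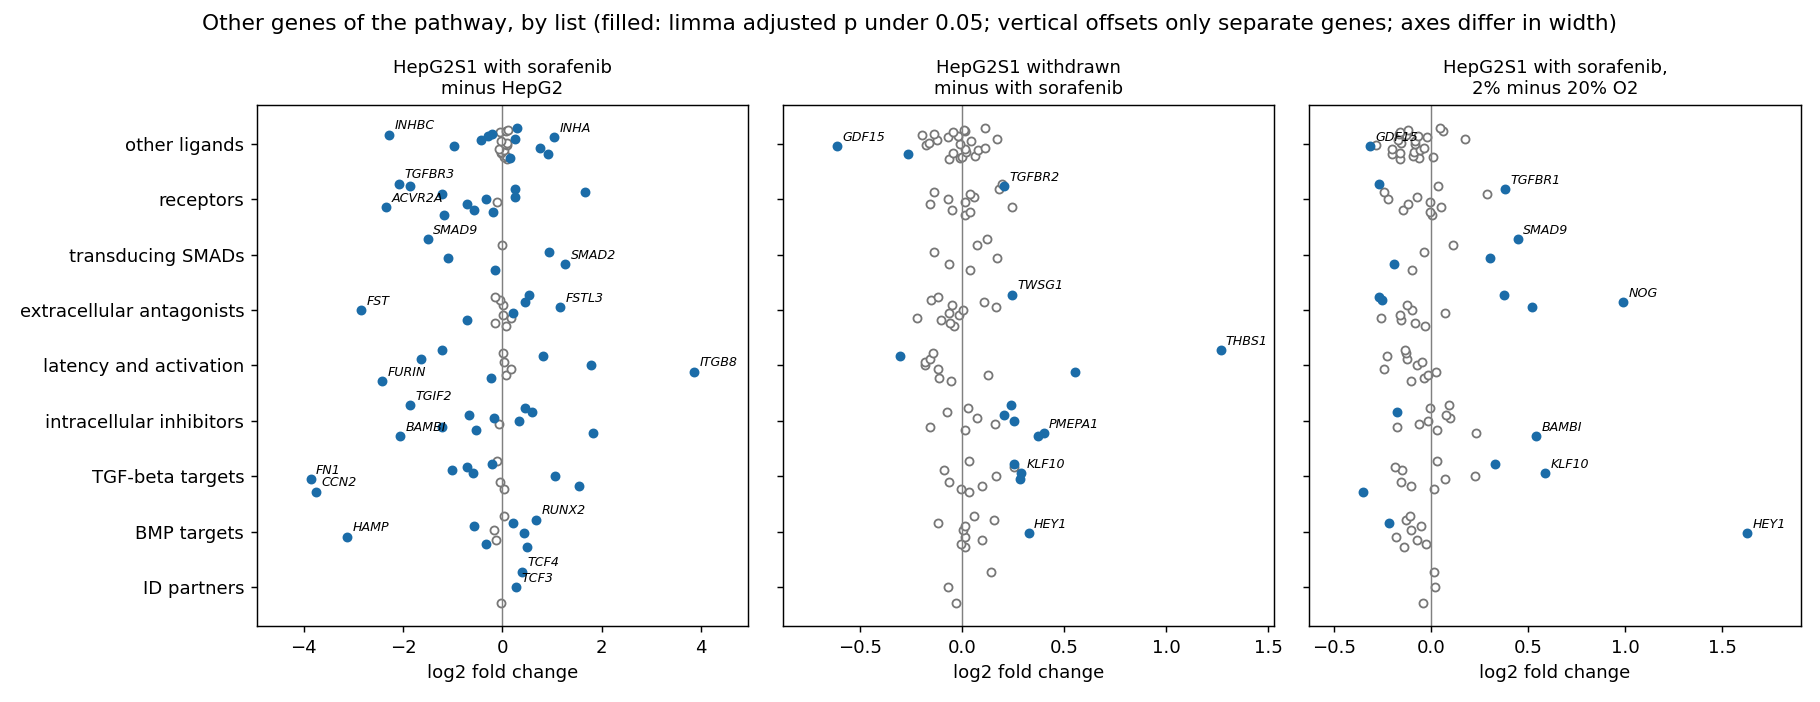
Log2 fold change (horizontal axis) of 103 other genes of the pathway, 1 point each, grouped by role (vertical axis) in 3 comparisons, with filled points for a limma adjusted p under 0.05 and the furthest called genes named. Between the lines 30 of the 103 are called higher and 38 lower, beside 30.1% and 27.2% of all genes, and 9 of 13 receptors are called lower. Calls are fewer within HepG2S1, as over all genes. On withdrawal 13 are higher and 3 lower, beside 10.1% and 7.9% of all genes. At 2% O2 10 are higher and 8 lower, beside 8.99% and 6.17%. THBS1, NOG and HEY1 stand furthest out within HepG2S1.

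Other genes of the pathway were taken from lists of 108 ligands, receptors, SMADs, antagonists, activators, inhibitors, targets and ID partners. Of these 103 were measured, and the others are not analysed here. Between HepG2S1 with sorafenib and HepG2, 30 of the 103 were higher, 38 lower and 35 not called, with a median log2 fold change of -0.03 against 0.01 over all genes. Over all genes, as above, 30.1% were called higher and 27.2% lower.

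Among 25 other ligands, 6 rose and 5 fell. INHBC, the subunit of activin C and a liver gene like INHBE, fell by 2.29 ± 0.10 (limma adjusted p = 8.52e-12), and INHA, the inhibin alpha subunit that pairs with activin subunits, rose by 1.04 ± 0.06. GDF15, a stress-induced ligand, fell by 0.98 ± 0.09. Of 13 receptors 3 rose and 9 fell, and the median of their log2 changes was -0.58. ACVR2A, a type II receptor for activins, fell by 2.34 ± 0.09, TGFBR3, the betaglycan that presents TGFB2, by 2.08 ± 0.06 and TGFBR2, the type II receptor for TGF-beta, by 1.85 ± 0.05, each without overlap of arrays. Withdrawn cells gave the same receptor counts against HepG2, 3 higher and 9 lower.

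Of the 6 transducing SMADs, 2 rose and 3 fell. SMAD2 rose by 1.26 ± 0.05, and its partner in the TGF-beta branch, SMAD3, fell by 1.09 ± 0.08. SMAD9, of the BMP branch, fell by 1.50 ± 0.09. Among 13 extracellular antagonists 4 rose and 2 fell: FST, the activin trap follistatin, was 7.20-fold lower, and FSTL3, its relative, 2.23-fold higher. Of 11 genes of ligand latency and activation 3 rose and 4 fell, led by ITGB8, an integrin chain that frees latent TGF-beta, which was 14.5-fold higher from a HepG2 mean of 5.79 ± 0.10 (SD, n = 3), at the mark for low levels. FURIN, the protease that cleaves TGF-beta and BMP precursors, was 5.37-fold lower, and LTBP1, which anchors latent TGF-beta in the matrix, 3.45-fold higher.

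Of 11 intracellular inhibitors 4 rose and 6 fell. BAMBI, a decoy receptor, fell by 2.06 ± 0.11 and PMEPA1, a TGF-beta target that binds SMADs, rose by 1.83 ± 0.09. Of 11 TGF-beta targets, of which COL1A1 is also among the fibroblast markers above, 2 rose and 6 fell, with FN1 (fibronectin, which hepatocytes also secrete) 14.5-fold lower, CCN2 (a matricellular growth factor) 13.4-fold lower and the cell cycle inhibitor CDKN2B 2.93-fold higher. Of 10 BMP targets 4 rose and 3 fell, and the largest was HAMP, the hepcidin gene of hepatocytes, 8.68-fold lower with values of 10.43 ± 0.08 (SD, n = 3) in HepG2 and 7.32 ± 0.07 (SD, n = 4) in HepG2S1. HAMP, like INHBE and INHBC, is a liver gene, and FN1 is not particular to liver. The hepatocyte markers were lower in the same arrays. The part of the marker shifts described above in these values was not tested. Of the 3 E proteins that ID proteins bind, TCF4 (0.39 ± 0.10) and TCF3 (0.28 ± 0.06) were higher. The HepG2 mean of TCF4 was 5.78 ± 0.19 (SD, n = 3), at the mark for low levels.

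Within HepG2S1 fewer of these genes were called, as was so over all genes. On withdrawal 13 of 103 rose and 3 fell, with 87 not called and a median log2 fold change of 0.01 against -0.02 over all genes, of which 10.1% were called higher and 7.9% lower. The number that rose was 7 without withdrawn replicate 1, and the number that fell was 1 without withdrawn replicate 2. THBS1, a matrix protein that activates latent TGF-beta, rose by 1.27 ± 0.08 (limma adjusted p = 4.54e-07), from 10.36 ± 0.11 (SD, n = 4) to 11.63 ± 0.01 (SD, n = 3), beside 11.57 ± 0.09 (SD, n = 3) in HepG2. ITGB8 rose by a further 0.56 ± 0.07 (limma adjusted p = 6.01e-05), and GDF15 fell by a further 0.61 ± 0.09 (limma adjusted p = 0.000229).

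Of the 11 intracellular inhibitors 5 rose on withdrawal and none fell, and 3 of the 11 TGF-beta targets rose and none fell, beside 10.1% of all genes called higher and 7.9% lower. The count of 5 was 3 without sorafenib replicate 2 or 3 and 2 without sorafenib replicate 4 or any 1 of the withdrawn replicates 1, 2 and 3. PMEPA1 (0.40 ± 0.09, limma adjusted p = 0.00461) and SMAD6, the inhibitory SMAD of the BMP branch (0.25 ± 0.05, limma adjusted p = 0.00235), kept their call when each array was left out in turn, as did the TGF-beta targets KLF10 (0.29 ± 0.06) and TGFBI (0.25 ± 0.06).

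At 2% O2 against 20% O2, 10 of 103 rose and 8 fell, with 85 not called and a median of -0.07 against -0.03 over all genes, of which 8.99% were called higher and 6.17% lower, so both counts were near the shares over all genes. The genes that fell were 15 with 75th percentile scaling, 3 without sorafenib replicate 2, 4 without sorafenib replicate 3 or 4, 5 without replicate 1 at 2% O2 and 1 without replicate 2 at 2% O2. The 10 that rose were 9 to 11 in these settings. HEY1, a repressor induced by BMP and Notch signals, rose 3.09-fold (log2 1.63 ± 0.08, limma adjusted p = 7.3e-09), from 8.46 ± 0.08 (SD, n = 4) to 10.09 ± 0.13 (SD, n = 3). NOG, the BMP trap noggin, rose 1.99-fold (limma adjusted p = 3.75e-05) and FSTL3 1.43-fold (limma adjusted p = 1.98e-05). KLF10, an early TGF-beta target, rose by 0.59 ± 0.06 (limma adjusted p = 1.2e-05), TGFBR1, the type I receptor for TGF-beta, by 0.38 ± 0.06 (limma adjusted p = 0.000865), and BAMBI by 0.54 ± 0.11 (limma adjusted p = 0.00391). Members of the same lists were among the 8 that fell. The receptor TGFBR3 fell by 0.27 ± 0.06 (limma adjusted p = 0.0121). The TGF-beta target CCN2 fell by 0.35 ± 0.10 (limma adjusted p = 0.0354), with overlapping arrays. GDF15 (-0.31 ± 0.09), the BMP target MSX2 (-0.22 ± 0.07) and SMAD2 (-0.19 ± 0.05) were also called lower. The MSX2 mean was below the mark for low levels in every group (5.63 with sorafenib at 20% O2, 5.42 at 2% O2). Its values may thus lie near background. The MSX2 call was lost with repeated quantile normalization (limma adjusted p = 0.113) and with trend and robust moderation (0.0598), among other settings. The calls of CCN2, GDF15 and SMAD2 were each lost in some settings too.

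In the direct comparison of 2% O2 with withdrawal, 6 of the 103 were higher and 9 lower, the latter 5 without withdrawn replicate 1 or 3, beside 10.8% and 7.73% of all genes. Against HepG2, withdrawn cells had 28 higher and 37 lower, beside 29.6% and 27% of all genes, and cells at 2% O2 had 27 higher and 43 lower, beside 30.6% and 30.6%.

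**Figure D4:**
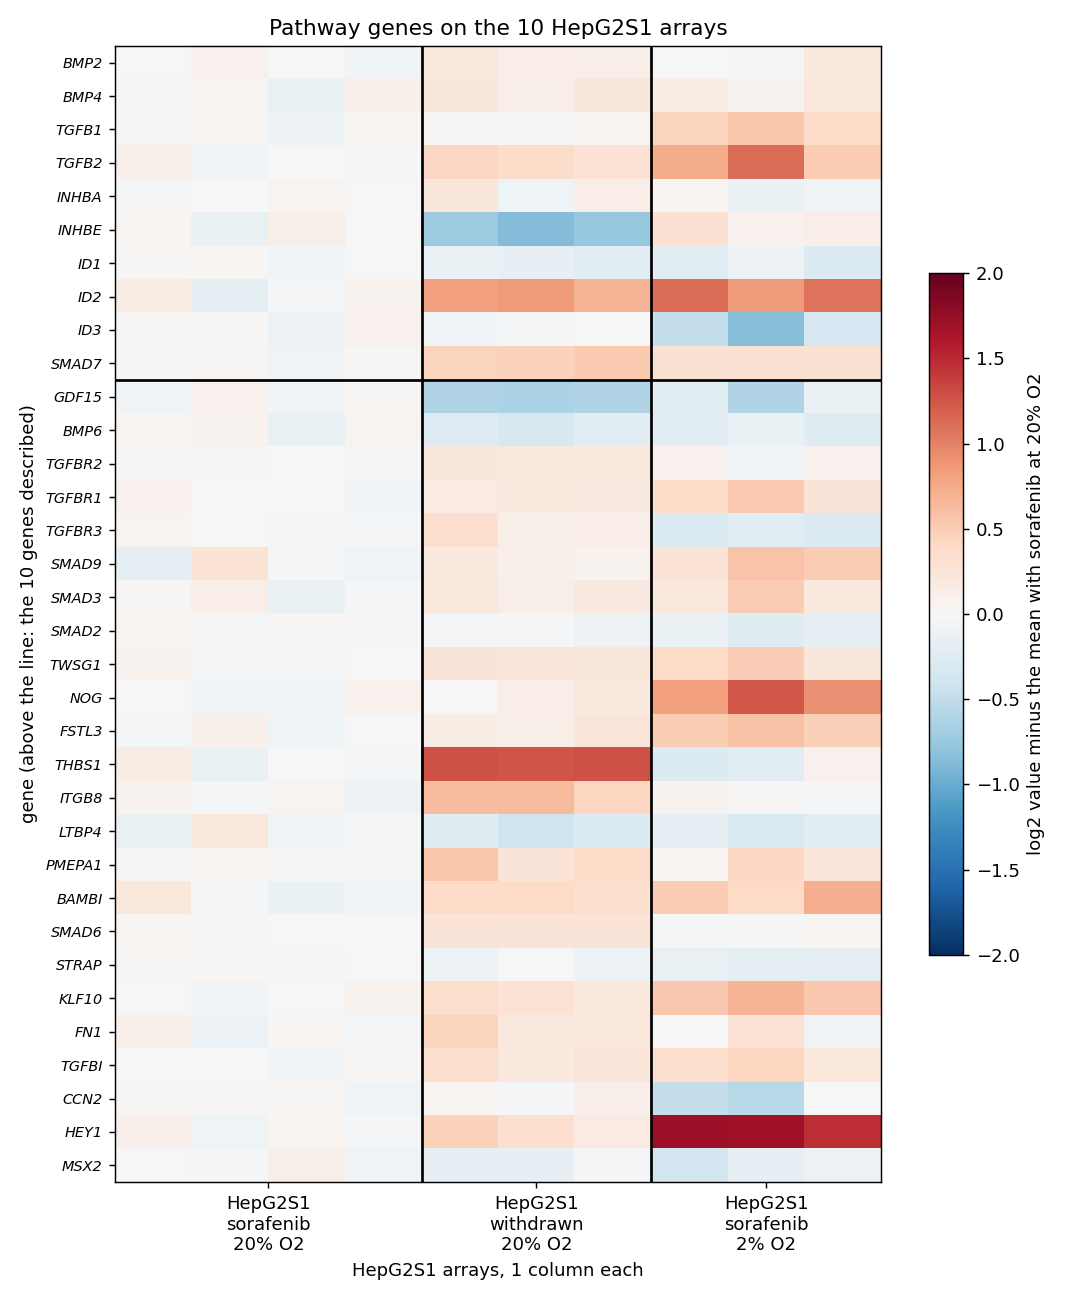
Log2 value minus the mean of the 4 sorafenib arrays at 20% O2 (colour) for the 10 genes and the pathway genes called within HepG2S1 (vertical axis) on each of the 10 HepG2S1 arrays (horizontal axis). ID2 and SMAD7 are raised in both other groups, INHBE and THBS1 depart after withdrawal alone, and TGFB1, NOG and HEY1 are highest at 2% O2.

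The genes whose course over the 13 arrays was most like that of each of 5 members were found by the root mean square difference of log2 values, each gene centred on its own mean. The arrays within a group share a condition, so this is a description. For ID2 the nearest was ARRDC4, an arrestin-related adaptor, at 0.232, with group means of 10.06 in HepG2, 7.03 with sorafenib, 7.63 after withdrawal and 7.55 at 2% O2. SULT1E1, the estrogen sulfotransferase, followed at 0.273 with a sorafenib mean of 5.70, below the mark for low levels, and ZNF626, a zinc finger gene, at 0.280. For INHBE the nearest was PCK2, the mitochondrial phosphoenolpyruvate carboxykinase, at 0.136, with means of 11.72, 9.70, 8.85 and 9.64 in the same order of groups. PECR at 0.163 and LY96 at 0.166 came next, and LY96 was below the mark after withdrawal.

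For ID3 the nearest were GART, an enzyme of purine synthesis, at 0.120, with means of 10.40, 10.99, 11.06 and 10.61, then RNF19B at 0.128 and GPD1L at 0.140. SMAD7 was followed most closely by NAT10 (0.0679), TUBB4B (0.0688) and RPP14 (0.0710), and ID1 by JADE3 (0.0492), UBR4 (0.0529) and SLC11A2 (0.0539). The smaller distances of ID1 and SMAD7 go with their smaller range, since a gene that hardly moves is close to many others that hardly move.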

How the data were processed

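RNA from 13 flasks of HepG2 and HepG2S1 cells was measured on Affymetrix whole-transcript gene arrays. The authors deposited log2 values in 1 table. RMA is named in the submitters' processing notes as its source; it corrects background, normalizes between arrays and summarises probes, and it draws low signals together, so that folds near the floor are understated. The RMA version is not given in the sources used here, and that the scale is log2 follows from the span of the values. The number of arrays limits the precision. The table has no detection calls, scan dates or batches, so none could be tested.

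Of 28926 rows, 19310 carried 1 gene symbol, 1752 several and 7864 none in the platform annotation, and symbols of 19279 rows were updated through Entrez IDs with RefSeq's gene table for GRCh38.p14. For 685 genes with several rows the row of highest mean was kept, which left 18377 genes. Groups were compared with lmFit and eBayes in limma 3.58.1 under R 4.3.3, in 1 fit over the 4 groups and 13 arrays, with Benjamini-Hochberg adjustment over all genes within each of 6 comparisons. A gene was called at an adjusted p under 0.05. Each fold is the first named group over the second, and SEs come from the fit. The steps were tested on simulated data.

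All 10 genes were named in every comparison, with up to 3 called genes of largest change per pathway list and comparison eligible to be named, and the 3 nearest genes of ID1, ID2, ID3, INHBE and SMAD7. Further BMP ligands and TGFB3 were named outside this rule, to set beside the members. The members and lists were chosen with earlier results of these data known. The labels describe separate flasks and not whether they came from separate cultures, so p-values measure the spread between these flasks, which may be technical. Replicates were numbered within a group in accession order. Alternatives covered moderation, the groups fitted, a filter on low levels, scaling, array weights, the rows tested, the threshold and leaving out each array. Promoter windows of RefSeq were searched on both strands. Python 3.11.15 with pandas 2.3.3 and matplotlib 3.10.9 drew the figures.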

Additional observations from a re-analysis of the deposited data

Results flagged for a closer look

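In the only group of 4 arrays, HepG2S1 with sorafenib at 20% O2, 1 array stood apart from the other 3 for 2 of the 10 genes by Dixon's gap test, which flags about 1 in 20 groups by chance. TGFB1 read 9.80 there, against 9.93 to 9.94 on the others, and SMAD7 read 8.11, against 8.21. Both low values came from the same array, replicate 3. Leaving it out ended neither the SMAD7 calls nor brought a TGFB1 call against HepG2.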

How the results depend on the processing

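No paired analysis was possible because the labels' running numbers do not repeat between groups, and the replicate numbers used here only name arrays. The number of the 10 genes called was within 1.5 times of the reported one in every alternative, and no called log2 fold change changed sign; some that were not called, all close to 0, did. Leaving out 1 array gave 8 to 8 genes for HepG2S1 with sorafenib against HepG2, 3 to 4 for withdrawal, 5 to 6 for 2% against 20% O2, 7 to 8 for withdrawn cells against HepG2, 3 to 4 for 2% O2 against withdrawal and 7 to 9 for 2% O2 against HepG2. Of single genes, 27 alternative values gained a call and 19 lost one. The losses were all of ID1 or of TGFB2 at 2% O2 against withdrawal, and at an adjusted p of 0.01 these 3 calls drop. Gains included TGFB2 on withdrawal in 5 of 16 alternatives (limma adjusted p from 0.00247 to 0.177), BMP4 on withdrawal in 4 of 16 (0.0144 to 0.194) and SMAD7 at 2% O2 against withdrawal in 6 of 15 (0.0166 to 0.195). SMAD7 was called in withdrawn cells against HepG2 without HepG2 replicate 3 (0.16, limma adjusted p = 0.024), and INHBA at 2% O2 against withdrawal without withdrawn replicate 2 (-0.24, limma adjusted p = 0.0413). The filter at the 33rd percentile left INHBA out.

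With array weights, calls over all genes were 5231 in place of 3303 on withdrawal, 4568 in place of 2786 at 2% against 20% O2 and 5178 in place of 3412 at 2% O2 against withdrawal. Of the 103 pathway genes, array weights then gave 21 higher and 9 lower on withdrawal and 14 lower at 2% against 20% O2. Fitting the 2 groups alone gave 5 lower in each of these comparisons, and 75th percentile scaling 5 lower on withdrawal. The cause was not tested. No scaling moved the median of all genes by over 0.1. RMA keeps no detection calls, so levels near 5.76, such as TGFB2 in HepG2, may lie near background.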
